A study of Mus musculus with 6 samples.

Results

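The genes described here are 39 genes of fatty acid uptake, activation and β-oxidation, together with the peroxisome proliferator-activated receptors (PPARs), a PPAR coactivator and PPAR target genes. They were chosen by symbol and function, and all 39 were found among the 43074 gene symbols of the count table. All 39 were also among the 17433 genes that had enough counts to be tested. RNA was sequenced from C2C12 cells, a mouse myoblast line labelled wild type, whose cells fuse into multinucleated myotubes when the serum is changed. The day 0 group was untreated cells grown with fetal bovine serum. The day 4 groups had spent 4 days in horse serum differentiation medium with either DMSO, the solvent control, or 1 mM 4-phenylbutyric acid (4-PBA), an aromatic fatty acid. Each of the 3 groups had 2 libraries. The labels do not say whether the libraries of a group came from separate cultures, so the p-values measure the spread between these libraries, which may be technical. Day 0 and day 4 also differ in serum and in the presence of DMSO, which cannot be told apart from differentiation. In whole cultures, fewer cells that express a gene and less of its RNA per cell cannot be told apart either.

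Fatty acids enter muscle cells partly through the membrane protein CD36 and are carried in the cytosol by fatty acid binding proteins. Acyl-CoA synthetases activate them, the carnitine shuttle moves long chains into mitochondria, and repeated cycles of dehydrogenation, hydration, a second oxidation and thiolysis release acetyl-CoA. Electrons from the first step pass through the electron transfer flavoprotein to the respiratory chain. PPARs are nuclear receptors that bind fatty acids and act with retinoid X receptors on genes of this pathway, and PPARδ is the receptor most often linked with skeletal muscle. 4-PBA is itself a substrate of this route, since β-oxidation shortens it to phenylacetate.

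Expression is given as CPM, counts scaled to a common library size after correction for library composition. Total counts ranged from 47908926 to 74697397 per library. A gene was called when its edgeR quasi-likelihood p, adjusted by Benjamini-Hochberg over all 17433 genes, was under 0.05. Fold changes are given on the log2 scale with their standard error (SE). The label of the cells was checked with marker lists. The 6 myotube markers summed to 85.9 to 90.7 CPM at day 0, to 4842 to 5165 CPM in the DMSO libraries and to 4775 to 4883 CPM in the 4-PBA libraries. The 4 cycling markers summed to 1333 to 1358 CPM in growing cells, fell to 360 to 426 CPM after 4 days in DMSO and stood at 450 to 461 CPM after 4 days in 4-PBA. The 7 adipocyte markers, 3 of which (Plin1, Cidec and Fabp4) are also PPAR pathway genes, summed to at most 0.432 CPM in any library, and Cfd had 0 counts in all 6. The 4 endothelial markers summed to 1.35 to 2.58 CPM and the 4 macrophage markers to 1.56 to 6.11 CPM.

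Promoters of the 4 members called between 4-PBA and DMSO are shown first, because the drug comparison turns on these genes. Each is the stretch of 250 bases before the annotated start in RefSeq on GRCm38.p6, 5′ to 3′ along the gene. The submitters' processing notes name GRCm39 for the counts, so these positions describe the sequences only. Capitals mark CAGCTG, an E-box of the kind bound by MyoD, and AGGTCA, the core motif of nuclear receptors, which reads TGACCT on the opposite strand. The Acsl3 promoter was at chr1:78657575-78657824 on the plus strand and held 1 CAGCTG.
Acsl3: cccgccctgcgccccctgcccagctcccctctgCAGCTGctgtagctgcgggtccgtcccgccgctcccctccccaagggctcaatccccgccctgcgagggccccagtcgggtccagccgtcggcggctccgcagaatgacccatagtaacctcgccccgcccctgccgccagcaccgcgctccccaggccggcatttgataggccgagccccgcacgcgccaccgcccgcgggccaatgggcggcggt
The Acsbg1 promoter was at chr9:54661886-54662135 on the minus strand and held neither motif.
Acsbg1: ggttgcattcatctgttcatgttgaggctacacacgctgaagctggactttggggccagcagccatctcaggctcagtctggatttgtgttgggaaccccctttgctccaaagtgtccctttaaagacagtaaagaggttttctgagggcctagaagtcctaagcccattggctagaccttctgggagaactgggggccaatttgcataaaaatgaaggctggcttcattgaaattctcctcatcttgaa
The Cpt1a promoter was at chr19:3323051-3323300 on the plus strand and held 1 of each motif.
Cpt1a: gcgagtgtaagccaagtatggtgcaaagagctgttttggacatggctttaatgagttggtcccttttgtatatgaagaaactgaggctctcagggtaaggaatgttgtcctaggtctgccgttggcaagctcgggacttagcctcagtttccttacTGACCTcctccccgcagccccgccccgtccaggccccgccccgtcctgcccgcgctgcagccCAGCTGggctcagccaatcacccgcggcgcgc
The Ucp2 promoter was at chr7:100493108-100493357 on the plus strand and held 1 CAGCTG.
Ucp2: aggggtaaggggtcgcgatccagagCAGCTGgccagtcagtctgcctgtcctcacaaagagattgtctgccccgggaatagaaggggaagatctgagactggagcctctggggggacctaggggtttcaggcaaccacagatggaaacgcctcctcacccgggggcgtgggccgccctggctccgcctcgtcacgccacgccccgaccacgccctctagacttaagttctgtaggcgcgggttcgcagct
In these windows guanine and cytosine made up 75.6% of the bases for Acsl3, 63.6% for Ucp2, 59.6% for Cpt1a and 48.4% for Acsbg1.

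Promoters of this length were found for 35 of the 39 members, and Cpt1b, Acaa2, Decr1 and Angptl4 had no entry. On either strand, AGGTCA was present for 9 members (Acadm, Acadvl, Acsl6, Cd36, Cpt1a, Echs1, Plin2, Pparg and Ucp3). It was in 10 of the members' 40 promoters and in 14% of all 32851 promoters. CAGCTG was present for 10 members (Acot2, Acsl1, Acsl3, Acsl4, Acsl6, Cpt1a, Plin2, Ppard, Ucp2 and Ucp3). It was in 10 of the members' 40 promoters and in 13% of all promoters. The direct repeat of PPAR and retinoid X receptor, 2 copies of AGGTCA with 1 base between them, was in 0.0335% of all promoters and in none of the members'. A looser form, with any base at the fourth position of each copy, was in 0.338% and again in none of theirs. TCAAGGTCA, the element of estrogen-related receptors, was in 0.387% of all promoters and in 1 member's, that of Acsl6. The core motif of the muscle factor MEF2 was in 0.103% of all promoters and in none of the members'. AGGTCA lies inside the strict repeat and inside TCAAGGTCA, so those counts are not separate. A match or its lack describes only the letters of these windows.

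The first comparison asked how the pathway differed between growing myoblasts and DMSO cultures after 4 days of differentiation. The uptake genes Cd36 and Fabp3 rose, the synthetases Acsl3, Acsl4 and Acsl6 rose while Acsl5, Acsl1 and Acsbg1 fell, and the 19 genes from Cpt2 and the carnitine carrier to electron transfer differed by less than 1 log2 unit. Of the 39 members, 31 were called, 16 higher and 15 lower, or 79.5% of them, while 66.3% of all genes tested were called (33.8% higher and 32.6% lower). The median log2 difference was -0.058 over the members and 0.023 over all genes, and the median absolute difference was 0.46 and 0.48. The libraries of the 2 groups did not overlap for 34 of 39 members and for 81.9% of all genes. The myotube and cycling marker sums given above moved with every change in this comparison, and their part in it was not tested.

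**Figure D1:**
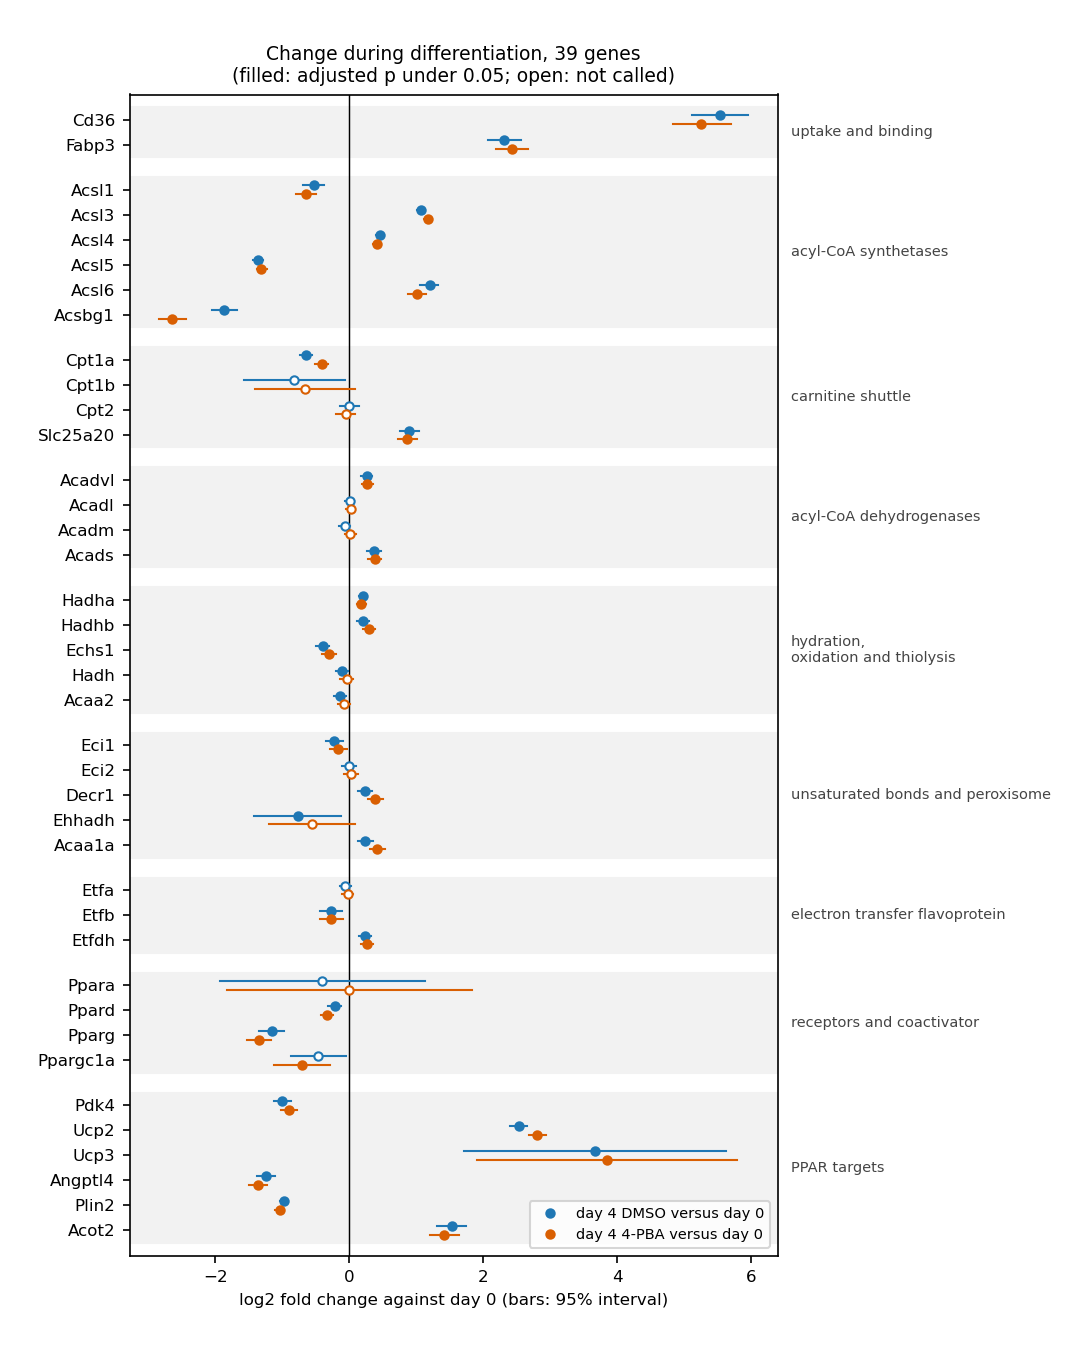
Log2 difference between day 4 and day 0 for each of the 39 genes, in role order, for DMSO and for 4-PBA, with bars for the 95% interval and filled points for called genes. Cd36, Ucp3, Ucp2 and Fabp3 lie farthest above 0 and Acsbg1 farthest below it with DMSO, and the points from Cpt2 and Slc25a20 to Etfdh lie within 1 log2 unit of 0. The Ucp3 points are fitted values that rest on 0 and 2 counts at day 0. Both sets of values use the same day 0 libraries.

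Cd36, the membrane transporter of long-chain fatty acids, was at 0.103 and 0.271 CPM in the day 0 libraries, from 5 and 19 counts, and at 10.0 and 8.94 CPM in the DMSO libraries. The groups lay far apart, with a log2 difference of 5.54 (SE 0.215, edgeR adjusted p = 2.78e-22). Because the day 0 value rests on so few counts, the size of the rise depended on the library, and it was 5.11 without day 0 replicate 1 and 6.50 without day 0 replicate 2. Cd36 is also made by adipocytes, endothelial cells and macrophages, whose marker sums were as low as given above. Of the 4 endothelial markers, 1 was called higher and 2 lower with DMSO, and Tek went from a mean of 0.667 to 2.07 CPM. The part of other cell types was not tested. Fabp3, the heart and muscle fatty acid binding protein, was at 2.02 and 2.28 CPM at day 0 and at 10.8 CPM in both DMSO libraries. It rose by a log2 difference of 2.32 (SE 0.124, edgeR adjusted p = 2.9e-18), again with no overlap, and its exons overlap Gm10570 and Zcchc17 on the opposite strand.

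The acyl-CoA synthetases, which trap fatty acids as CoA esters, changed in both directions. Acsl5, found on mitochondria and the endoplasmic reticulum, was at 155 CPM in both day 0 libraries and at 60.7 and 60.5 CPM with DMSO. It fell by 1.36 on the log2 scale (SE 0.0383, edgeR adjusted p = 2.39e-26). Acsbg1, a synthetase of the bubblegum family known mainly from brain and steroid-producing tissue, was at 71.1 and 69.0 CPM at day 0 and at 21.8 and 16.7 CPM with DMSO. It fell by 1.87 (SE 0.096, edgeR adjusted p = 8.83e-09), and its DMSO libraries lay further apart, relative to their mean, than those of the other synthetases. Acsl3, which acts at the endoplasmic reticulum and on lipid droplets, was at 128 and 133 CPM at day 0 and at 271 and 278 CPM with DMSO. It rose by 1.07 (SE 0.0322, edgeR adjusted p = 1.62e-25). Acsl6 rose from a mean of 13.7 to 31.3 CPM and Acsl4, which prefers arachidonate, from 202 to 278 CPM. Acsl1, the main synthetase for oxidation in adult muscle and heart, fell from 21.4 to 14.8 CPM. All 6 synthetases were called, in a comparison where 66.3% of all genes tested were called.

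Divided by exon length, the 6 synthetases can be set against each other as shares of their summed CPM per kb. Acsl3 made up 24.6% ± 0.611 of the sum at day 0 (SD, n = 2), 46.0% ± 0.31 with DMSO and 49.2% ± 0.574 with 4-PBA. Acsl4 made up 30.6% ± 0.352, 37.6% ± 0.404 and 36.2% ± 0.484. Thus Acsl4 led at day 0 and Acsl3 at day 4. Acsl5 went from 26.1% ± 0.0233 to 9.09% ± 0.114 and 9.33% ± 0.172, and Acsbg1 from 15.9% ± 0.356 to 3.91% ± 0.772 and 2.25% ± 0.0724. Acsl1 and Acsl6 each stayed at or below 2.39% in every library. These shares are levels within the family and were not tested, and a share can move because another member moved.

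**Figure D2:**
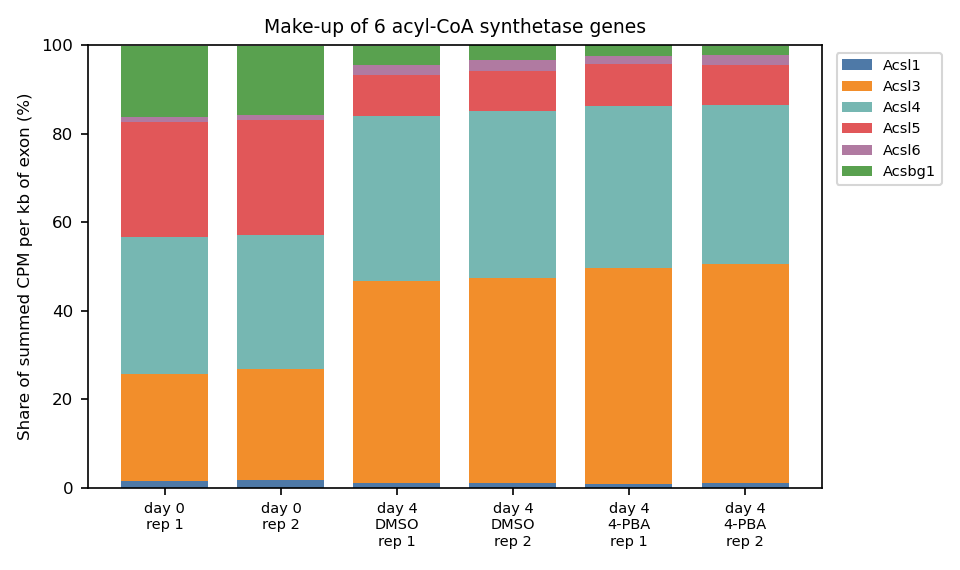
Share of the summed CPM per kb of the 6 acyl-CoA synthetase genes taken by each gene, as a percentage, in each of the 6 libraries. Acsl4 has the largest share at day 0 and Acsl3 in all 4 day 4 libraries, where Acsl5 and Acsbg1 are small.

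In the carnitine shuttle, the carrier rose while the gate fell. Slc25a20, the carnitine-acylcarnitine carrier of the inner membrane, was at 13.1 and 12.5 CPM at day 0 and at 23.5 and 24.2 CPM with DMSO, a log2 difference of 0.90 (SE 0.0715, edgeR adjusted p = 1.92e-13). Cpt1a, the liver form of carnitine palmitoyltransferase and the rate-limiting entry step, was at 60.3 and 63.9 CPM at day 0 and at 40.3 and 39.4 CPM with DMSO. It fell by 0.64 (SE 0.0484, edgeR adjusted p = 4.56e-14), and the libraries of the groups did not overlap. Cpt1b, the isoform typical of adult muscle, was at 0.782 and 0.869 CPM at day 0 and at 0.539 and 0.404 CPM with DMSO, with a log2 difference of -0.82 that was not called (SE 0.383, edgeR adjusted p = 0.0597). Its exons overlap Gm44502 on the same strand. Per kb of exon, Cpt1a made up 97.1%, 97.4% and 97.5% of the sum of Cpt1a and Cpt1b in the day 0, DMSO and 4-PBA groups. Cpt1c, outside the 39 genes and left out of this sum, was at 3.19, 2.79 and 3.04 CPM per kb in the same order. Cpt1a was at 8.13, 5.21 and 6.12 CPM per kb. Cpt2, the inner membrane transferase, was not called (0.0044, SE 0.0713).

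Hadha and Hadhb encode the α and β subunits of the mitochondrial trifunctional protein, and their annotated starts lie 272 bases apart on opposite strands. Because the genes of 1 enzyme share this stretch, the 228 bases common to both upstream windows are shown, from chr5:30155003-30155230 of GRCm38.p6 (RefSeq), plus strand, with no letter in capitals because neither AGGTCA nor CAGCTG occurred in it.
Hadha and Hadhb: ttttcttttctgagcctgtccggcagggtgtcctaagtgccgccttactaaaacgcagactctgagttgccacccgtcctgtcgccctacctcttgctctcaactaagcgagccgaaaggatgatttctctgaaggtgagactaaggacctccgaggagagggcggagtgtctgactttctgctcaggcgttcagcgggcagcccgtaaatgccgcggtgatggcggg
Hadha was at 137 and 131 CPM at day 0 and at 154 and 156 CPM with DMSO, a log2 difference of 0.20 (SE 0.0347, edgeR adjusted p = 3.25e-06). Hadhb was at 56.1 and 61.0 CPM at day 0 and at 67.4 and 67.6 CPM with DMSO, also a difference of 0.20 (SE 0.0455, edgeR adjusted p = 0.000185). Both subunits rose by about the same amount, with no overlap between groups. With 4-PBA, Hadha was at 150 and 154 CPM and Hadhb at 70.4 and 72.7 CPM. Exons of Hadha overlap Garem2 on the opposite strand.

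The acyl-CoA dehydrogenases, which take the first electrons from fatty acyl chains of different lengths, rose in 2 of 4 cases. Acads, for short chains, was at 49.2 and 45.4 CPM at day 0 and at 63.7 and 58.7 CPM with DMSO, and rose by a log2 difference of 0.37 (SE 0.0518, edgeR adjusted p = 1.35e-07). Acadvl, for very long chains, was at 81.2 and 81.5 CPM at day 0 and at 98.8 and 95.6 CPM with DMSO, and rose by 0.26 (SE 0.04, edgeR adjusted p = 7.7e-07). The groups did not overlap for either gene, and the exons of Acadvl overlap Dvl2 on the opposite strand. Acadl, for long chains, and Acadm, for medium chains, were not called, with log2 differences of 0.0084 (SE 0.034) and -0.065 (SE 0.0429). Acadl was the most abundant of the 4 per kb of exon in each group, with 67.7, 68.1 and 69.0 CPM per kb at day 0, with DMSO and with 4-PBA. Its share of the 4 was 49.3% at day 0 and 45.7% with DMSO.

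Among the enzymes that complete the cycle, some rose, some fell and the changes were small. Echs1, the short-chain enoyl-CoA hydratase, was at 60.8 and 57.4 CPM at day 0 and at 43.1 and 46.7 CPM with DMSO, and fell by 0.39 on the log2 scale (SE 0.0496, edgeR adjusted p = 1.17e-08). Hadh, the medium- and short-chain hydroxyacyl-CoA dehydrogenase, fell by 0.11 (edgeR adjusted p = 0.0389), and the mitochondrial thiolase Acaa2 fell by 0.13 (edgeR adjusted p = 0.00947). Etfb, the β subunit of the electron transfer flavoprotein, was at 14.2 and 14.6 CPM at day 0 and at 12.5 and 11.4 CPM with DMSO, and fell by 0.27 (SE 0.0847, edgeR adjusted p = 0.00507). Etfdh, which hands the electrons to ubiquinone, was at 49.3 and 50.3 CPM at day 0 and at 57.8 and 58.8 CPM with DMSO, and rose by 0.23 (SE 0.0459, edgeR adjusted p = 4.47e-05). Etfa, the α subunit, was not called (-0.058, SE 0.0421). The subunits and partner of 1 electron transfer chain thus moved in different directions or were not called.

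The 5 auxiliary enzymes here act on unsaturated chains or in peroxisomes. Acaa1a, a peroxisomal thiolase, was at 30.0 and 28.7 CPM at day 0 and at 34.8 and 34.4 CPM with DMSO, and rose by 0.24 on the log2 scale (SE 0.0575, edgeR adjusted p = 0.000453). It has a close paralog, Acaa1b, and overlaps Myd88 on the opposite strand, so its reads may be shared. Decr1, the dienoyl-CoA reductase, rose by 0.23 (edgeR adjusted p = 0.000321). Eci1, an enoyl-CoA isomerase, fell by 0.22 (edgeR adjusted p = 0.00511), and Eci2 was not called. Ehhadh, the peroxisomal bifunctional enzyme, was low, at 1.15 and 0.855 CPM at day 0 and 0.586 and 0.58 CPM with DMSO, and fell by 0.77 (SE 0.331, edgeR adjusted p = 0.0408). The 19 genes were Cpt2, the carrier Slc25a20, the dehydrogenases, the other cycle and auxiliary enzymes and the electron transfer genes. Of them, 8 rose, 6 fell and 5 were not called, and the differences ran from -0.77 to 0.90. The share called was 73.7% of the 19 and 66.3% of all genes tested (33.8% higher and 32.6% lower).

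The receptors fell or were not called. Ppard, the receptor linked with muscle, was at 64.9 and 64.2 CPM at day 0 and at 56.4 and 54.9 CPM with DMSO, and fell by 0.21 on the log2 scale (SE 0.0463, edgeR adjusted p = 0.000114). Pparg, the receptor of adipocyte differentiation, was at 18.8 and 16.9 CPM at day 0 and at 7.88 and 8.10 CPM with DMSO, and fell by 1.16 (SE 0.0911, edgeR adjusted p = 1.41e-13). The groups did not overlap for either receptor. Ppara, the receptor of liver and heart, was at no more than 0.228 CPM in any library and was not called (-0.40, SE 0.783, edgeR adjusted p = 0.675). Ppargc1a, the coactivator of mitochondrial biogenesis, was at 2.16 and 2.76 CPM at day 0 and at 1.54 and 2.05 CPM with DMSO, and was not called (-0.46, SE 0.209, edgeR adjusted p = 0.0508). Per kb of exon, Ppard made up 58.5% ± 1.5 of the PPAR sum at day 0 (SD, n = 2) and 73.0% ± 0.737 with DMSO, and Pparg made up 41.2% ± 1.74 and 26.7% ± 0.741.

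The 6 genes grouped here as PPAR targets were all called, 3 higher and 3 lower. Of all genes tested, 66.3% were called in this comparison, 33.8% higher and 32.6% lower. Ucp2, an uncoupling protein family member of the inner mitochondrial membrane, was at 7.70 and 8.77 CPM at day 0 and at 49.4 and 46.6 CPM with DMSO. It rose by 2.53 on the log2 scale (SE 0.0651, edgeR adjusted p = 1.54e-27), and its exons overlap Dnajb13 on the opposite strand. Ucp3, the uncoupling protein typical of muscle, had 0 and 2 counts at day 0, 8 and 25 in the DMSO libraries and 21 and 12 in the 4-PBA libraries. With day 0 set to a floor of 3 counts per library, its mean CPM was 4.44-fold higher with DMSO and 5.09-fold higher with 4-PBA. These ratios leave out the spread between libraries, and the 95% intervals of the fitted log2 differences began at 1.72 and 1.91. Acot2, a mitochondrial acyl-CoA thioesterase with the near-identical paralog Acot1, rose from a mean of 4.03 to 11.6 CPM. The other 3 fell. Pdk4, the kinase that shuts off pyruvate oxidation, fell from 38.4 to 19.3 CPM, Angptl4, a secreted inhibitor of lipoprotein lipase, from 49.0 to 20.7 CPM, and Plin2, a coat protein of lipid droplets, from 273 to 139 CPM. Plin2 was the most abundant member per kb of exon at day 0, at 77.7 CPM per kb, and was at 39.5 with DMSO.

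Some of these calls depended on the libraries or the setting. Hadh lost its call in 5 of the 6 fits that left out a library (all but DMSO replicate 2) and Ehhadh without day 0 replicate 1 or either DMSO library, with edgeR adjusted p up to 0.187 and 0.237. Neither was called with the DESeq2 Wald test (adjusted p = 0.0526 and 0.0898) or with no filter (edgeR adjusted p = 0.0689 and 0.0655). Hadh was also not called with the stricter filter (edgeR adjusted p = 0.0665), nor Ehhadh with limma-voom (adjusted p = 0.0541). Acaa2, Eci1 and Etfb lost theirs without day 0 replicate 2 (edgeR adjusted p = 0.137, 0.122 and 0.0537) and without 1 DMSO library, which was replicate 2 for Acaa2 and Etfb and replicate 1 for Eci1. Ucp3 was not called without DMSO replicate 2 (edgeR adjusted p = 0.0766). Ppargc1a was called lower without day 0 replicate 1 (-0.62) or DMSO replicate 2 (-0.69), with DESeq2 size factors (edgeR adjusted p = 0.0467) and with library size only (0.0396), Cpt1b without 4-PBA replicate 1 (-0.81) and in the fit of only 4 libraries (-0.83) and Acadm without DMSO replicate 2 (-0.11).

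The second comparison asked what 4-PBA changed at day 4. Ucp2, Cpt1a and Acsl3 were higher than with DMSO and Acsbg1 was lower, while none of the 19 genes from Cpt2 and the carnitine carrier to electron transfer was called. The 4 called members were 10.3% of 39, and 4.90% of all genes tested were called (2.13% higher, 2.78% lower). The median log2 difference was 0.034 over the members and 0.0021 over all genes, and 25 members lay above 0 and 14 below. The libraries of the groups did not overlap for 23 of 39 members and for 45.5% of all genes.

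**Figure D3:**
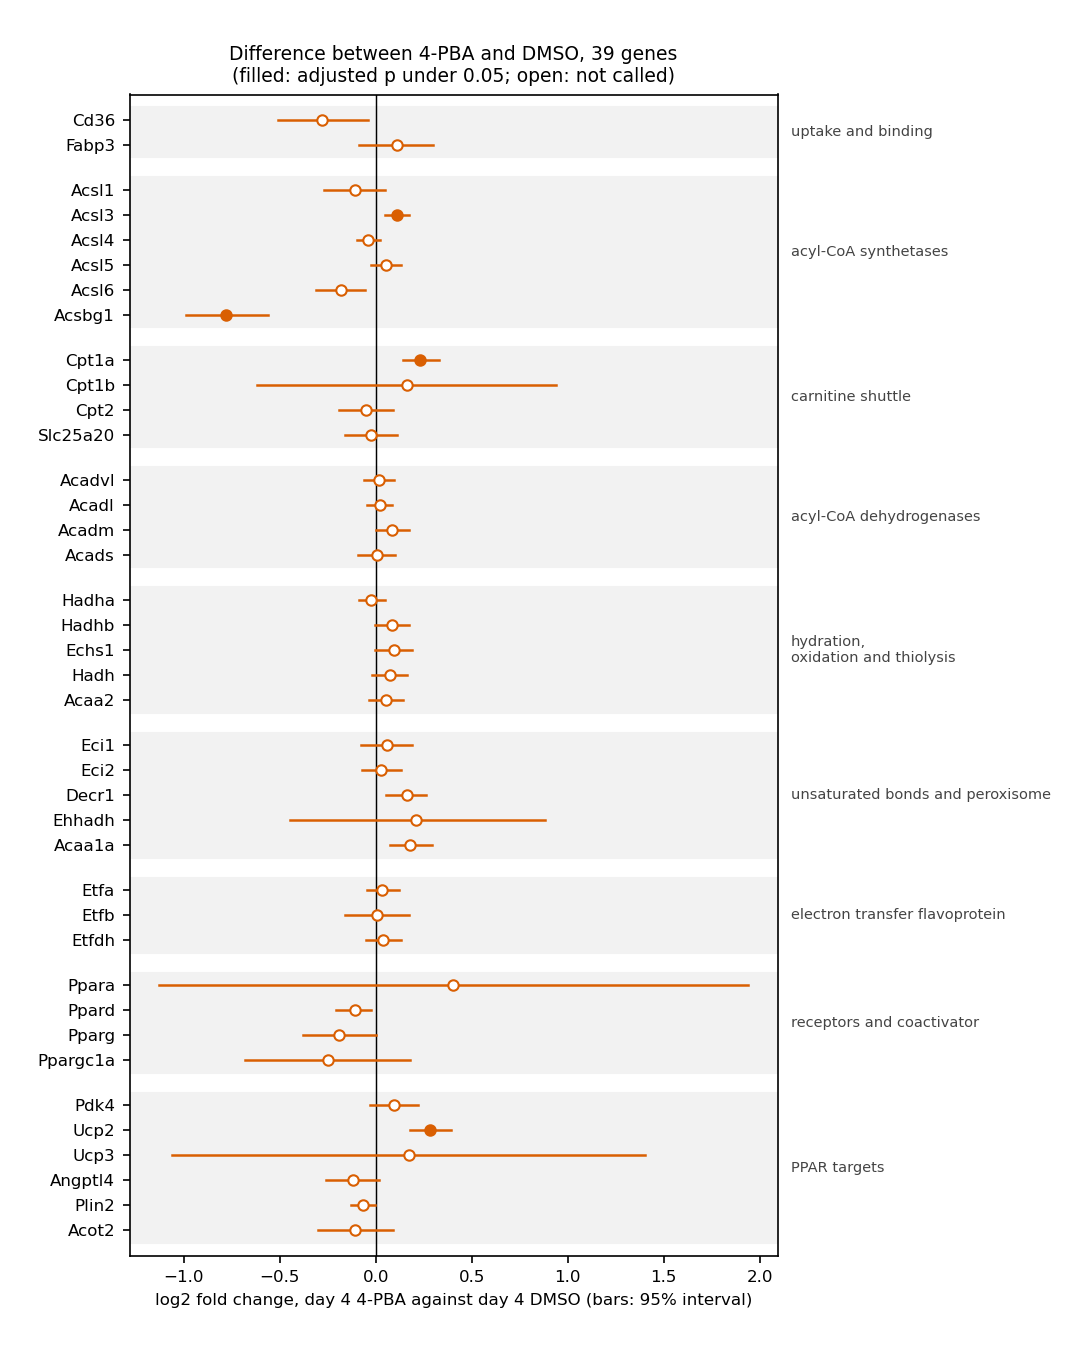
Log2 difference between 4-PBA and DMSO at day 4 for each of the 39 genes, in role order, with bars for the 95% interval and filled points for called genes. Only Acsbg1 (-0.78), Ucp2 (0.28), Cpt1a (0.23) and Acsl3 (0.11) were called, and the bars of low-count genes such as Ppara and Ucp3 are wide.

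Acsbg1 was at 21.8 and 16.7 CPM in the DMSO libraries and at 11.5 and 11.0 CPM in the 4-PBA libraries. Both 4-PBA values lay under both DMSO values, and the gene fell by 0.78 on the log2 scale (SE 0.109, edgeR adjusted p = 0.00232). It fell by 0.58 when DMSO replicate 1, the higher one, was left out, and it was called in all 6 fits that left out a library. The same gene had fallen between day 0 and day 4 with DMSO, and with 4-PBA it was at 11.2 CPM on average against 70.0 CPM at day 0. Ucp2 was at 49.4 and 46.6 CPM with DMSO and at 59.3 and 57.4 CPM with 4-PBA. The groups did not overlap, and the log2 difference was 0.28 (SE 0.0533, edgeR adjusted p = 0.000719). It ranged from 0.24 to 0.32 when 1 library was left out and was called in all 6 such fits.

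Cpt1a was at 40.3 and 39.4 CPM with DMSO and at 46.2 and 47.3 CPM with 4-PBA, a log2 difference of 0.23 (SE 0.0489, edgeR adjusted p = 0.00285). Its 4-PBA values lay above both DMSO values and below both day 0 values. The call was lost without 4-PBA replicate 2 (edgeR adjusted p = 0.0744). Acsl3 was at 271 and 278 CPM with DMSO and at 295 and 299 CPM with 4-PBA, a log2 difference of 0.11 (SE 0.0313, edgeR adjusted p = 0.0289). The groups did not overlap, but the call held in only 1 of the 6 fits that left out a library, and the adjusted p reached 0.301 without 4-PBA replicate 2. The exons of Acsl3 overlap Utp14b on the same strand, so reads of the pair may be shared. Acsl3 and Ucp2 moved in the same direction with the drug as with differentiation, Acsbg1 fell in both, and Cpt1a fell with differentiation and was higher with the drug, with the DMSO libraries common to both comparisons.

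**Figure D4:**
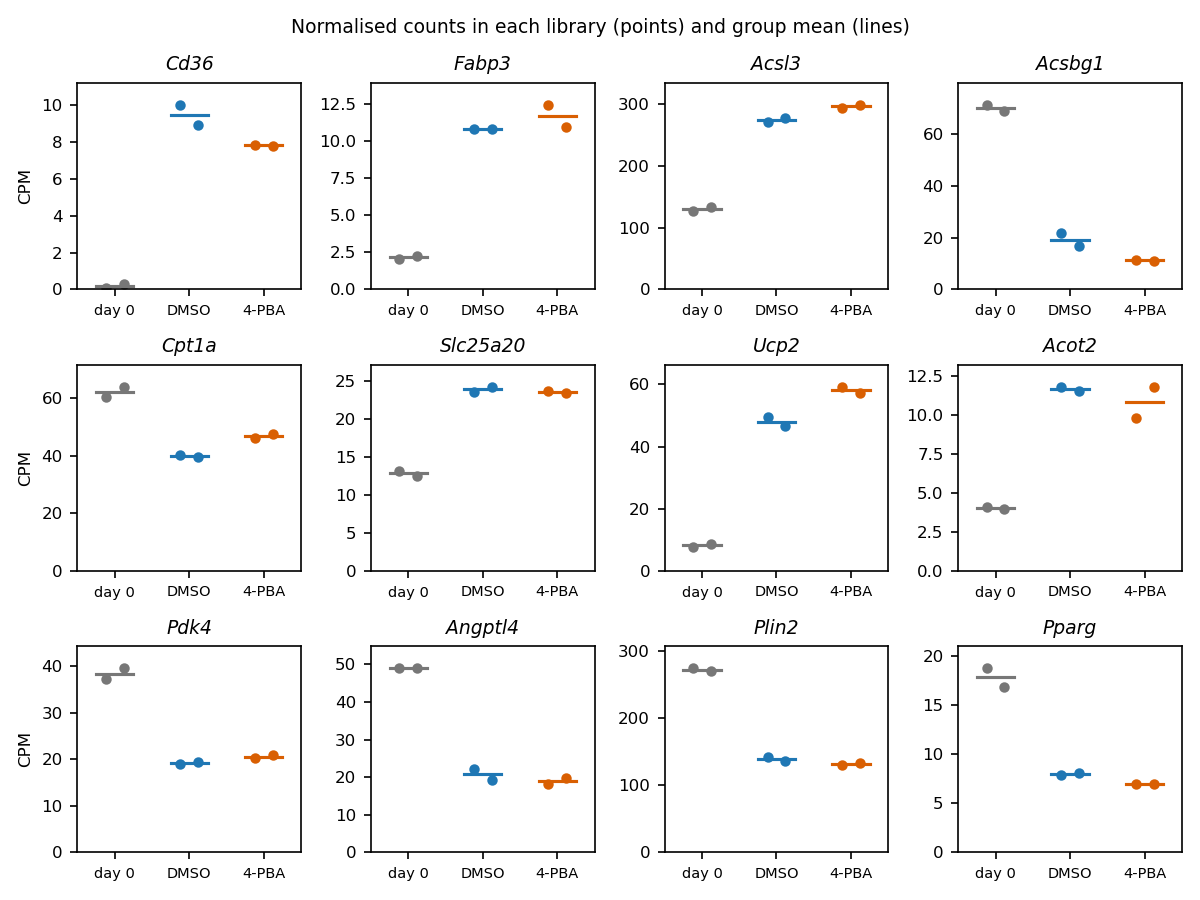
CPM of 12 members in each of the 6 libraries (points), with a line at each group mean and a linear axis from 0 in each panel. For Acsbg1, Cpt1a, Acsl3 and Ucp2 the 4-PBA libraries lie clear of the DMSO libraries, by less than the DMSO libraries lie from day 0.

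The remaining synthetases were not called. Acsl6 was at 30.0 and 32.6 CPM with DMSO and at 26.6 and 28.6 CPM with 4-PBA (-0.18, SE 0.0646, edgeR adjusted p = 0.105), and it was called without DMSO replicate 1 (-0.24, edgeR adjusted p = 0.0268). Acsl1, Acsl4 and Acsl5 differed by -0.11, -0.039 and 0.052. Cd36 was at 10.0 and 8.94 CPM with DMSO and at 7.86 and 7.76 CPM with 4-PBA, and Fabp3 at 10.8 CPM in both DMSO libraries and at 12.4 and 10.9 CPM with 4-PBA. Neither was called, with edgeR adjusted p of 0.221 and 0.675. Cpt1b was at 0.539 and 0.404 CPM with DMSO and at 0.338 and 0.709 CPM with 4-PBA, so the groups overlapped (0.16, SE 0.399).

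For the same 19 genes, from Cpt2 and the carnitine carrier to electron transfer, the differences ran from -0.053 to 0.21 with a median of 0.036, and 16 of the 19 lay above 0. Of all genes, 8821 of 17433 lay above 0. None of the 19 was called in the main edgeR fit, with limma-voom or with the DESeq2 Wald test. In the main fit, 2 had an unadjusted edgeR p under 0.05. Those were Acaa1a, at 34.8 and 34.4 CPM with DMSO and at 40.9 and 37.7 CPM with 4-PBA (0.18, SE 0.0561, edgeR adjusted p = 0.0504), and Decr1, at 35.2 and 36.3 CPM and then 40.6 and 39.2 CPM (0.16, SE 0.0536, edgeR adjusted p = 0.0852). Both act in auxiliary steps, and the 4-PBA libraries of both lay above the DMSO libraries. Acaa1a was called with DESeq2 size factors, with library size only, with no filter, with the stricter filter and without DMSO replicate 1. The 16 became 13 without DMSO replicate 2 and 14 when either 4-PBA library was left out. The SE of the 19 genes had a median of 0.05 and was smallest for Acadl, at 0.0339 with a log2 difference of 0.019. It was largest for Ehhadh, at 0.341, and this gene also gave the upper end of the range, 0.21. Ehhadh had 37 to 43 counts in each day 4 library.

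Receptors and most targets were not called either. Ppard was at 56.4 and 54.9 CPM with DMSO and at 53.1 and 49.6 CPM with 4-PBA (-0.11, SE 0.0467, edgeR adjusted p = 0.177). Pparg was at 7.88 and 8.10 CPM and at 6.97 and 7.02 CPM in the same order (-0.19, SE 0.098, edgeR adjusted p = 0.326). For both, the 4-PBA libraries lay under the DMSO libraries. Ppargc1a was at 1.54 and 2.05 CPM with DMSO and at 1.5 and 1.53 CPM with 4-PBA (-0.25, SE 0.218), and Ppara at 0.111 and 0.108 CPM and at 0.0805 and 0.209 CPM (0.40, SE 0.783). Among the targets other than Ucp2, the differences were 0.097 for Pdk4, -0.12 for Angptl4, -0.068 for Plin2, -0.11 for Acot2 and 0.17 for Ucp3. Angptl4 was called without DMSO replicate 2 (-0.23, edgeR adjusted p = 0.0415). Of the 6 genes grouped here as PPAR targets, Ucp2 was thus the one called with 4-PBA in the fit of all 6 libraries. The grouping gives each gene 1 role, and Cpt1a, also called higher, was placed in the carnitine shuttle.

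Markers of cell state also differed between the drug and DMSO libraries. All 4 cycling markers were higher with 4-PBA by 0.17 to 0.25 on the log2 scale, with none called, and 2 of 6 myotube markers, Mymk and Acta1, were called lower (-0.17 and -0.094). Within the DMSO group, replicate 1 had the higher cycling sum (426 against 360 CPM) and the higher Acsbg1 (21.8 against 16.7 CPM), while the 4-PBA libraries had the highest day 4 cycling sums, 450 and 461 CPM, and the lowest Acsbg1. The part of cell state in these results was not tested.

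The third comparison set 4-PBA cultures at day 4 against day 0. It shares the day 0 libraries with the DMSO comparison, so the values are given side by side and not as a second piece of evidence. Of the 39 members, 29 were called, 16 higher and 13 lower, or 74.4%, while 65.6% of all genes tested were called (33.2% higher and 32.4% lower). The libraries of the groups did not overlap for 34 of 39 members and for 81.8% of all genes. For Cd36 the log2 difference from day 0 was 5.26 with 4-PBA and 5.54 with DMSO, and for Fabp3 it was 2.43 and 2.32. Among synthetases it was 1.18 and 1.07 for Acsl3, -2.64 and -1.87 for Acsbg1, and -1.31 and -1.36 for Acsl5. Cpt1a was at -0.41 and -0.64, and Ucp2 at 2.81 and 2.53. Slc25a20 was at 0.87 and 0.90, Pparg at -1.35 and -1.16, Angptl4 at -1.36 and -1.24, and Plin2 at -1.04 and -0.98.

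The following 4 members differed in their call against day 0 between the drug and DMSO. Ppargc1a was called lower with 4-PBA (-0.71, edgeR adjusted p = 0.00407) and not with DMSO (-0.46). Hadh, Acaa2 and Ehhadh were called lower with DMSO (-0.11, -0.13 and -0.77) and not with 4-PBA (-0.038, -0.079 and -0.55). The direct difference between 4-PBA and DMSO was not called for any of the 4, with edgeR adjusted p of 0.639, 0.48, 0.625 and 0.837. Without day 0 replicate 2, the Ppargc1a call was lost (edgeR adjusted p = 0.109), as were those of Eci1 and Etfb (0.35 and 0.0625). Eci1 also lost it without 4-PBA replicate 1 (0.299) and Etfb without 4-PBA replicate 2 (0.0507), while Cpt1b was called lower without the latter (-1.29, edgeR adjusted p = 0.0244).

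Other genes of fatty acid oxidation, 50 in a list outside the 39, were called about as often as the whole table. Of the 44 tested, 20 were called higher and 9 lower with DMSO against day 0, or 65.9% against 66.3% of all genes. Amacr, the racemase of branched-chain acyl-CoAs, rose from 22.5 and 24.5 CPM to 59.4 and 61.5 CPM, a log2 difference of 1.36. Acox3, a peroxisomal oxidase of branched chains, rose by 1.14, and Acadsb, which acts on short branched chains, by 1.03. The largest falls were in carriers and a thioesterase, with Fabp5 at -1.71, the transport protein Slc27a1 at -1.21 and Acot7 at -1.20. These 6 genes were picked by the size of their called changes. The libraries of the groups did not overlap for any of them, nor for 81.9% of all genes. The medium-chain acyl-CoA synthetases Acsm1, Acsm2, Acsm4 and Acsm5 had at most 3 counts in any library and were not tested. Acsm3 of the same family was tested and had 0 to 16 counts per library.

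Between 4-PBA and DMSO, 4 of the 44 were called, or 9.09% against 4.90% of all genes. These 4 were picked by their calls, and 45.5% of all genes had no overlap between the groups. Slc27a3, a synthetase of the fatty acid transport protein family, was at 13.4 and 13.5 CPM with DMSO and at 17.3 CPM in both 4-PBA libraries (0.36, edgeR adjusted p = 0.0057). Fabp5, which fell with differentiation, was at 25.1 and 24.4 CPM with DMSO and at 28.1 and 27.9 CPM with 4-PBA (0.18, edgeR adjusted p = 0.0457). Acaca, the carboxylase that makes malonyl-CoA, an inhibitor of CPT1, was at 171 and 159 CPM with DMSO and at 149 CPM in both 4-PBA libraries (-0.15, edgeR adjusted p = 0.008). Slc27a1 was at 78.1 and 83.5 CPM with DMSO and at 74.8 and 71.1 CPM with 4-PBA (-0.15, edgeR adjusted p = 0.0179). None of the 4 overlapped between the groups, and each lost its call when 4-PBA replicate 2 was left out, with edgeR adjusted p of 0.0645, 0.214, 0.1 and 0.341 in that order. Without 4-PBA replicate 1, Slc27a3, Fabp5 and Acaca lost it too (0.0695, 0.246 and 0.125). Acaca also lost it without DMSO replicate 1 (0.0848), and Slc27a1 without DMSO replicate 2 (0.166) and in the fit of only 4 libraries (0.0531). Fabp5 lost it in every fit that left out a day 0 library (0.0704 and 0.0753), without DMSO replicate 2 (0.124), in the fit of only 4 libraries (0.108) and with a replicate block (0.0612). Fabp5 was also not called with limma-voom (adjusted p = 0.107) or the DESeq2 Wald test (adjusted p = 0.0768).

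Of 40 further PPAR pathway genes, 33 were tested, and 13 were called higher and 10 lower with DMSO against day 0, or 69.7% against 66.3% of all genes. The largest rises were in the hormone gene Fgf21, at 0.165 and 0.0855 CPM at day 0 and 4.06 and 6.08 CPM with DMSO (5.40), in G0s2, an inhibitor of adipose triglyceride lipase (3.27), and in Pdk2, a pyruvate dehydrogenase kinase (2.48). Pdk2 was at 5.64 and 5.19 CPM at day 0 and at 27.7 and 32.3 CPM with DMSO, while its relative Pdk4 fell. The largest falls were in the lipid droplet protein genes Plin4 (-1.66) and Hilpda (-0.95) and in Lpl, lipoprotein lipase (-0.69), beside the falls of Plin2 and Angptl4. Between 4-PBA and DMSO, 2 of the 33 were called, or 6.06% against 4.90% of all genes. Both were lower and encode nuclear receptor corepressors, Nrip1 (-0.19, edgeR adjusted p = 0.0132) and Ncor1 (-0.11, edgeR adjusted p = 0.0305). Nrip1 was at 50.6 and 49.9 CPM with DMSO and at 45.1 and 42.8 CPM with 4-PBA. Both calls were lost when either 4-PBA library was left out, with edgeR adjusted p up to 0.269 for Nrip1 and 0.393 for Ncor1. Ncor1 also lost its call without day 0 replicate 1 (0.0662) or 2 (0.0631) and in the fit of only 4 libraries (0.0574).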

How the data were processed

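RNA from 6 C2C12 libraries was measured, with 2 libraries in each of 3 groups and 1 batch number for all. Per the labels' protocols, DNase-treated total RNA was made into directional cDNA libraries. The deposited table holds raw whole-number counts for each gene symbol and library. The submitters' processing notes name GRCm39, and the aligner, counting tool, annotation and use of strand are not given in the sources used here. The 39 genes and the other lists were chosen with earlier results of these data known.

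The R package edgeR (version 4.0.16, under R 4.3.3) was run on the counts. After filterByExpr, 17433 of 43074 symbols were tested, and 13014 had no counts at all. Libraries were scaled with TMM and fitted in 1 model of group means with robust glmQLFit, with 3 residual degrees of freedom. The SE is the log2 difference over the square root of F. The 95% intervals are the log2 difference ± 1.96 SE, so they are narrower than the F test itself would give. CPM are means ± SD of 2 libraries. The common biological coefficient of variation was 3.74%. An exact permutation test of 2 libraries against 2 cannot go below p = 0.333, so each p-value draws on the spread estimated over many genes.

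Exon lengths and overlaps came from GENCODE M21 (GRCm38), matched by symbol, and promoters from RefSeq (GRCm38.p6). Named genes were those called between 4-PBA and DMSO, the 2 largest called changes of each role group, the receptors, Ppargc1a, Cpt1a and Cpt1b. From the other lists they were the called genes and the 3 largest rises and falls with at least 5 CPM.

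Counts of calls, the 39 genes and, in the comparison that named them, the other named genes were recomputed with limma-voom (limma 3.58.1), the Wald test of DESeq2 1.42.0, the size factors of DESeq2, plain library sizes, a filter of 10 counts and 1 CPM or none, fits of 4 libraries, a replicate block, and each library left out. Cpt1b, Ehhadh, Ppara and Ucp3 did not pass every filter. Same-numbered libraries of 2 groups did not deviate together (correlations -0.0279, -0.0116 and -0.00306). On simulated data for 4-PBA against DMSO (16942 genes), edgeR called 39 of 50 genes changed 1.25-fold, 44 of 50 at 1.5-fold and 50 of 50 at 2-fold, with 19 false calls. The changed genes were drawn from those with a mean count of at least 50, and day 0 and DMSO were given the same means. These rates therefore do not cover genes with lower counts or changes under 1.25-fold.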

Additional observations from a re-analysis of the deposited data

How the results depend on the processing

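The number of all genes called between 4-PBA and DMSO ranged from 295 to 1194 when 1 library was left out, against 855 with all, and was lowest without 4-PBA replicate 2 (295) and replicate 1 (341). The members called higher then ranged from 1 to 3 and lower from 1 to 2. With a replicate block the counts were 11403 for DMSO against day 0, 768 for 4-PBA against DMSO and 11309 for 4-PBA against day 0, and the members called stayed at 16 and 15, 3 and 1, and 16 and 13 (higher and lower). The block ended the call of Fabp5 between 4-PBA and DMSO (adjusted p = 0.0612). The library numbers share no stated source.

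Signs turned only for differences that were not called. For DMSO against day 0, Cpt2 was at -0.0045 with DESeq2 size factors, -0.023 with library size only, -0.003 with 4 libraries, -0.0018 with limma-voom and -0.0039 with the DESeq2 Wald test. Acadl was at -0.00064, -0.02 and -0.00065 with DESeq2 size factors, library size only and the Wald test. Eci2 was at -0.009, -0.028, -0.00043, -0.0077 and -0.0092 with DESeq2 size factors, library size only, the block, 4 libraries and the Wald test. For 4-PBA against day 0, Ppara was at -0.0022, -0.014 and -0.0021 with DESeq2 size factors, library size only and 4 libraries, and Acadm at -0.0016 with library size only. The cause was not tested.

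When 1 library was left out, the DMSO differences from day 0 ranged from -0.079 to 0.087 for Cpt2, -0.00047 to 0.017 for Acadl, -0.013 to 0.01 for Eci2 and -1.05 to 1.37 for Ppara. For 4-PBA against DMSO the ranges were -0.00023 to 0.038 (Acadl), -0.052 to 0.062 (Acads), -0.033 to 0.063 (Acadvl), -0.24 to 0.019 (Acot2), -0.47 to 0.59 (Cpt1b), -0.13 to 0.031 (Cpt2), -0.018 to 0.14 (Eci1), -0.023 to 0.077 (Eci2), -0.064 to 0.077 (Etfb), -0.43 to 0.93 (Ppara) and -0.34 to 1.06 (Ucp3). For 4-PBA against day 0 they were -0.0043 to 0.037 (Acadm), -0.12 to 0.025 (Cpt2), -0.019 to 0.077 (Eci2), -0.072 to 0.028 (Etfa) and -0.81 to 1.77 (Ppara). Depth limits Ppara, Ucp3, Cpt1b and Ehhadh, which had the lowest counts of the members besides day 0 Cd36.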
